A study of Mus musculus with 4 samples.

Results

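The genes described here are 8 members of the Bcl2 family, found by symbol in the deposited gene lists (8 of 32285 genes): Bcl2, Mcl1, the Bcl2a1 copies Bcl2a1a, Bcl2a1b and Bcl2a1d, Bcl2l1, Bcl2l11 and Bax. They were measured in droplet single-cell RNA libraries of tibial fracture callus from male C57BL/6J mice aged 20 months, harvested 7 days after treatment. The 2 adenosine libraries came from calluses given a microgel that contained adenosine, and the 2 control libraries from calluses given the same kind of material without it. The labels name bone marrow as the tissue, and the cells were sorted as viable after lysis of red blood cells. Whether each library was made from its own animal or from pooled animals is not given. The p-values between treatments cover the spread among these 4 libraries. Those between cell classes cover how the difference within a library varies from library to library. Either spread may be technical.

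Proteins of the Bcl2 family decide whether the outer mitochondrial membrane is opened, the step that releases cytochrome c and starts the caspases. Bcl2, Mcl1, Bcl-xL (from Bcl2l1) and A1 (from the Bcl2a1 genes) hold the membrane closed, Bim (from Bcl2l11) binds and blocks these guardians, and Bax forms the pore. Blood cells are known to differ in the guardian they depend on: lymphocytes on Bcl2, neutrophils on Mcl1 and A1, red cell precursors on Bcl-xL.

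Cells were sorted into classes by marker genes that include none of the 8 members, and the UMIs (counted RNA molecules) of each gene were summed per library and class. Levels are given as CPM, the UMIs of a gene scaled to a fixed total of all UMIs of that class in that library. After filtering, 8153 and 8095 cells of adenosine 1 and adenosine 2 and 8635 and 6278 cells of control 1 and control 2 were kept, with medians of 3460, 4699, 3749 and 2992 UMIs per cell in that order. Of these cells, 8.75% matched no class clearly and were left out of the class sums. The libraries shared 13 to 28 barcodes per pair, at most 0.305% of the smaller library. Skeletal cells were nearly absent, with 13, 1, 2 and 8 mesenchymal cells or fibroblasts in that same order.

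Control 2 stood apart from the other libraries in its neutrophils. Cells with UMIs of at least 2 of 5 activation markers (Cxcl2, Cxcl3, Ccl3, Ccl4 and Acod1) made up 3.42% and 3.02% of the mature neutrophils in adenosine 1 and adenosine 2, and 5.96% and 82.1% in control 1 and control 2. Summed, these markers were also high in the B cells of control 2, at 564 CPM against 7.7 to 17 CPM in the other libraries. Its monocyte-macrophages had 1003 CPM, against 43 to 75 CPM. The part of this in which neutrophils had at least 2 of these markers, or none, was not tested. Control 2 also held 224 immature neutrophils, against 2128 to 2638 in the other libraries, 35 T cells and 1 promyelocyte. Adenosine 2 held 1099 T cells, against 35 to 143 in the others.

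Bcl2, the founding guardian of the family (chromosome 1, 106538178 to 106714274, minus strand, GRCm38), was highest in natural killer and T cells. Natural killer cells had 2248 and 1755 CPM in adenosine 1 and adenosine 2 and 2171 CPM in control 1, and control 2 had too few of these cells. T cells had 1844 and 726.5 CPM in adenosine 1 and adenosine 2 and 2376 and 818 CPM in control 1 and control 2, so that the ranges of T and natural killer cells overlapped. The T cells of the second library of each group were low, and the groups overlapped.

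Mature B cells had 673 and 463 CPM of Bcl2 in the adenosine libraries and 583 and 315 CPM in the control libraries. B cell precursors were low, at 19.8 to 35.9 CPM. Hematopoietic progenitors lay at 466 and 422 CPM in the adenosine libraries and 450 CPM in control 1, within the range of the mature B cells. Plasmacytoid dendritic cells averaged 335 ± 112 CPM (SD, n = 3 libraries) and overlapped with mature B cells. Basophils or mast cells averaged 148 ± 107 CPM (SD, n = 3 libraries). The level was lower along the granulocyte line: promyelocytes had 117, 109 and 78.8 CPM in adenosine 1, adenosine 2 and control 1. Immature neutrophils averaged 11.1 ± 3.09 CPM and mature neutrophils 4.55 ± 2.83 CPM (SD, n = 4 libraries each). Monocyte-macrophages had 17.4 and 18.6 CPM in the adenosine libraries and 19.6 and 15.6 CPM in the control libraries. Some of these levels depended on how the classes were drawn. With Leiden clusters named from the same markers, monocyte-macrophages averaged 40.7 ± 17.4 CPM (SD, n = 4) and ranged from 17.6 to 59.2 CPM. Promyelocytes then averaged 68.0 ± 9.56 CPM and plasmacytoid dendritic cells 175 ± 4.24 CPM (SD, n = 3 each). The latter lay below the mature B cells of those clusters, at 310 to 707 CPM.

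Mcl1, a short-lived guardian that neutrophils are known to need (chromosome 3, 95658788 to 95663176, plus strand), was highest in mature neutrophils. Among classes with values in at least 3 libraries, these cells also had the least Bcl2. Mature neutrophils led in all 4 libraries, with 934 and 983 CPM in adenosine 1 and adenosine 2 and 1005 and 2388 CPM in control 1 and control 2. Their range lay apart from that of monocyte-macrophages, which had 344 and 432 CPM in the adenosine libraries and 395 and 716 CPM in the control libraries. Control 2 was the highest library in both classes. This order holds for Mcl1 as a share of UMIs. Mature neutrophils had library medians of 2131 to 2680 UMIs per cell and monocyte-macrophages 9431.5 to 11372, and amounts per cell were not compared. T cells (183 ± 56.8 CPM, SD, n = 4), natural killer cells (181 ± 31.5 CPM, SD, n = 3) and immature neutrophils (209 ± 17.3 CPM, SD, n = 4) did not differ beyond their spread. Among classes with values in at least 3 libraries, hematopoietic progenitors had the lowest mean, at 111 ± 6.16 CPM (SD, n = 3), and overlapped with promyelocytes. Erythroid cells, with a value in adenosine 1 only, had 102 CPM of Mcl1 and 1.84 CPM of Bcl2.

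**Figure D1:**
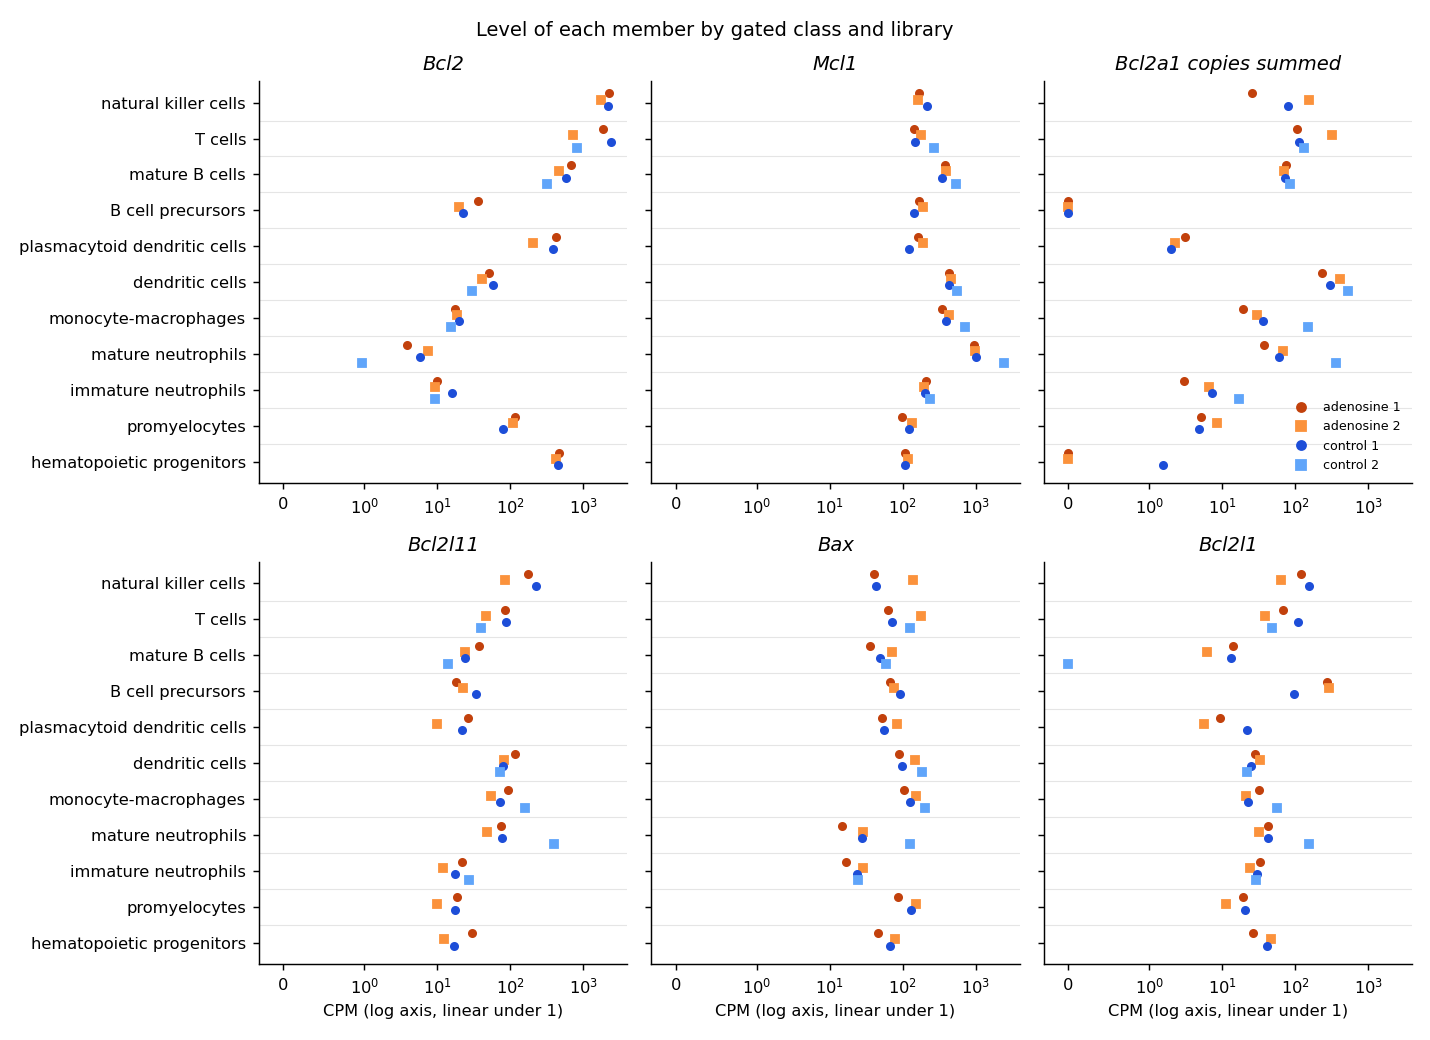
Level of each member (CPM, log axis that is linear under 1) in 11 gated classes, with 1 point per library and at least 20 cells behind each point. Bcl2 is highest in natural killer and T cells and lowest in mature neutrophils, Mcl1 is highest in mature neutrophils, and the summed Bcl2a1 copies span from 0 in B cell precursors to 532 CPM in the dendritic cells of control 2.

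The Bcl2a1 genes encode A1, a guardian induced by NF-kB in stimulated immune cells, and lie as near-identical copies on chromosome 9: Bcl2a1d at 88723285 to 88731914 on the minus strand, Bcl2a1a at 88956900 to 88962419 and Bcl2a1b at 89199209 to 89207827 on the plus strand. Their transcripts were 98.2% to 99.1% identical, and between 36.1% and 61.6% of the 90-base windows of a copy also occur in another, so the split of UMIs between copies is uncertain and the sum is given first. The likeness extends to the sequence around their starts. The stretches below, from RefSeq (GRCm38.p6, 5′ to 3′ on each gene's strand), are shown because they carry the sequence the copies share around their starts, with the letters GAGGAAGT, a motif of the myeloid and B cell factor PU.1, in capitals. They lie at chr9:88956816-88956925 (plus strand), chr9:89199125-89199234 (plus strand) and chr9:88731845-88731954 (minus strand).
Bcl2a1a: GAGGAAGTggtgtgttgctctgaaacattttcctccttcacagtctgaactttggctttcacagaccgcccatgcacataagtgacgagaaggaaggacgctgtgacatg
Bcl2a1b: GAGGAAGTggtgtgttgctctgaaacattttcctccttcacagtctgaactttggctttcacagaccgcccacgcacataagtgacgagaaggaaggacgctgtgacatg
Bcl2a1d: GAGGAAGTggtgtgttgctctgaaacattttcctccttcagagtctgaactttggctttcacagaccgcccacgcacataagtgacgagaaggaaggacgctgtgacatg

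Counted from 1 at the first base shown, Bcl2a1a differs from Bcl2a1b by T73C and from Bcl2a1d by C41G and T73C. The letters GAGGAAGT, searched on both strands, were found in 3.20% of 32851 RefSeq promoter windows of 300 bases. Among the 8 members they occurred only in the windows of the 3 copies. A kappaB motif, for NF-kB, was searched in the same windows and was found in 50.8% of them. It occurred in the window of Bcl2a1b, from base 251, but not in those of Bcl2a1a and Bcl2a1d. The windows of the copies are offset, with GAGGAAGT at base 103 for Bcl2a1b and at base 147 for Bcl2a1a and Bcl2a1d. Counted from GAGGAAGT, the place of the Bcl2a1b match runs past the end of the other windows. It was therefore not searched in full there, and the copies cannot be compared for this motif. Among the other members it was present for Bcl2, Mcl1, Bcl2l11 and Bax, and in some but not all windows of Bcl2l1. A match is a description of the letters and not a measured site.

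Among the classes as a whole, summed Bcl2a1 had its highest mean in dendritic cells, with 229 and 403 CPM in adenosine 1 and adenosine 2 and 294 and 532 CPM in control 1 and control 2. T cells had 106 and 320 CPM in the adenosine libraries and 111 and 131 CPM in the control libraries. The 320 CPM belong to adenosine 2, whose T cells were also the most often dividing (16.7% with UMIs of at least 3 of 5 division markers, against 0.971% to 2.86% in the other libraries), and the part of division in this level was not tested. Its T cells with none of these markers had 284 CPM, against 120, 123 and 122 CPM in adenosine 1, control 1 and control 2.

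Mature neutrophils spread widely, with 37.6 and 67.9 CPM of summed Bcl2a1 in the adenosine libraries and 60.01 and 356 CPM in the control libraries. In hematopoietic progenitors, 2 UMIs were counted over 3 libraries.

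The copies did not go together in all classes. Bcl2a1a took 0 of 80 and 13 of 3798 Bcl2a1 UMIs in the T cells of adenosine 1 and adenosine 2, and 0 of 75 and 0 of 30 in those of control 1 and control 2. Over the 4 libraries this is 0.326% (95% Wilson interval 0.191% to 0.558%, which covers counting error only). In B cells the share was 3 of 371 UMIs (0.809%, interval 0.275% to 2.35%), and in natural killer cells 0 of 95.

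Myeloid cells had UMIs of this copy in every library. The share of Bcl2a1a was 7.91% and 12.2% in the dendritic cells of adenosine 1 and adenosine 2 and 14.3% and 8.61% in those of control 1 and control 2. In monocyte-macrophages it was 10.5% and 16.5% in the adenosine libraries and 18.2% and 9.02% in the control libraries. Over all libraries, Bcl2a1d showed no such gap between T cells (35.4%) and dendritic cells (37.0%), and was lower in mature neutrophils (13.6%). Of the 3983 T cell UMIs, 3798 came from adenosine 2, and of the 5344 UMIs of mature neutrophils, 4412 came from control 2. By library the share was 24% to 36.7% in T cells, 30.2% to 39.7% in dendritic cells and 10.6% to 18.0% in mature neutrophils. Reads of a copy may be assigned to its near-identical neighbours, so the size of each share is uncertain, and the part of this in the shares was not tested.

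**Figure D2:**
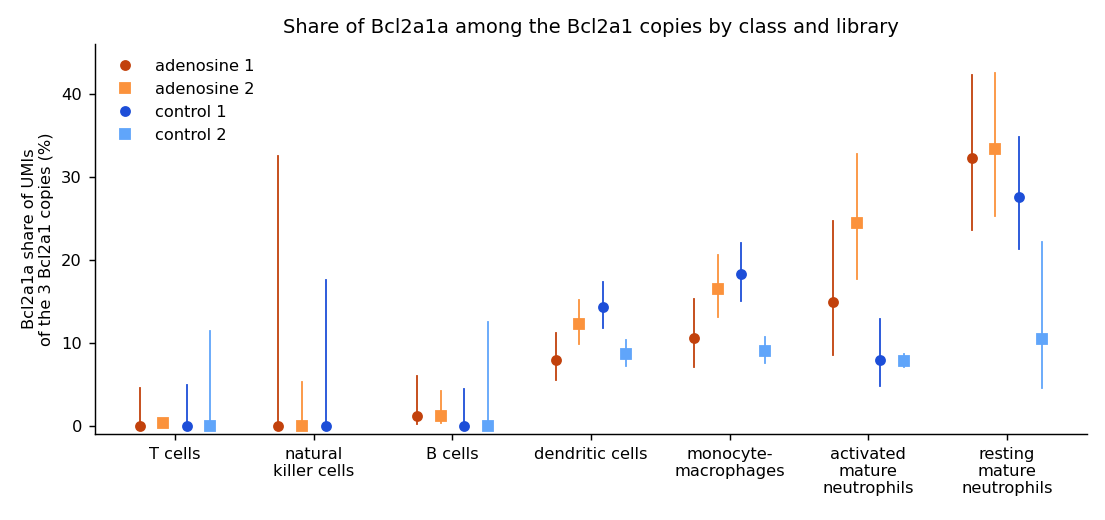
Share of Bcl2a1a among the UMIs of the 3 Bcl2a1 copies (%), by class and library, with 95% Wilson intervals for counting error. T, natural killer and B cells lie near 0, and dendritic cells, monocyte-macrophages and activated and resting mature neutrophils between 7.78% and 33.3%.

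Bcl2l1 (chromosome 2, 152780668 to 152831728, minus strand), whose product Bcl-xL protects early red and B cells, had its highest class level in B cell precursors, with 269 and 287 CPM in the adenosine libraries and 95.1 CPM in control 1. Activated mature neutrophils averaged 138 ± 61.9 CPM (SD, n = 4) and overlapped with them. Natural killer cells had 119 and 64.1 CPM in the adenosine libraries and 152 CPM in control 1, and overlapped with both. Erythroid cells reached 121 CPM in adenosine 1, the only library with at least 20 of them. Mature neutrophils had 42.3 and 31.9 CPM in the adenosine libraries and 42.0 and 153 CPM in the control libraries, and control 2 alone was high.

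Bcl2l11 (chromosome 2, 128126038 to 128162547, plus strand), the source of the killer Bim, had its highest class means in natural killer cells, mature neutrophils, monocyte-macrophages and dendritic cells. T cells came next, at 64.4 ± 24.7 CPM (SD, n = 4), and overlapped with dendritic cells. Natural killer cells had 176 and 84.0 CPM in the adenosine libraries and 222 CPM in control 1. Mature neutrophils had 75.7 and 47.7 CPM in the adenosine libraries and 76.3 and 400.4 CPM in the control libraries. Control 2 alone was high among the mature neutrophils. These classes, with monocyte-macrophages and dendritic cells, overlapped in range.

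Bax (chromosome 7, 45461697 to 45466898, minus strand), whose product forms the pore, had its highest mean in monocyte-macrophages. Monocyte-macrophages had 103 and 150.2 CPM in the adenosine libraries and 125 and 202 CPM in the control libraries, and every neighbour in the order of classes overlapped with the next. Immature neutrophils were lowest, at 23.2 ± 4.75 CPM (SD, n = 4).

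Several members moved with the library and not only with the class. Bax was higher in adenosine 2 than in adenosine 1 in 11 of 11 classes and higher in control 2 than in control 1 in 5 of 6. Bcl2l11 was lower in adenosine 2 than in adenosine 1 in 11 of 11 classes, and in the control pair lower in control 2 in 3 of 6. Bcl2 was lower in the second library in 9 of 11 classes of the adenosine pair and 6 of 6 of the control pair. Classes of a library share its preparation and depth and are not independent.

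Mature neutrophils had higher CPM of most members than immature ones. CPM is a share of the UMIs of a class, and the mature cells held fewer UMIs. Their library medians were 2131 to 2680 UMIs per cell, against 4037 to 7040 in immature cells, and amounts per cell were not compared. In one fit with the library as a block, 6 of the 8 members were higher and 1 was lower in mature than in immature neutrophils (edgeR quasi-likelihood test, p adjusted over all genes, threshold 0.05), where 62.1% of the 10856 genes tested were called, 29.5% higher and 32.6% lower. Mcl1 had 934 and 983 CPM in mature cells of the adenosine libraries and 1005 and 2388 CPM in those of the control libraries, against 205 and 195 CPM and 201 and 234 CPM in their immature cells. Its log2 difference was 2.69 ± 0.24 (SE, adjusted p = 0.000157 by edgeR), and every mature value lay above every immature one.

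All Bcl2a1 copies were also higher, by 4.22 ± 0.32 for Bcl2a1a, 3.67 ± 0.27 for Bcl2a1b and 3.35 ± 0.46 for Bcl2a1d on the log2 scale, with edgeR adjusted p of 9.91e-05, 8.68e-05 and 0.000919. Summed, they had 2.9 and 6.5 CPM in the immature cells of the adenosine libraries and 7.3 and 17.1 CPM in those of the control libraries. Bcl2l11 rose with them, by 2.54 ± 0.35 (edgeR, adjusted p = 0.000976).

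Bcl2l1 was higher by 1.04 ± 0.36 (edgeR, adjusted p = 0.0400) and Bcl2 lower, with a log2 difference of -1.26 ± 0.40 (edgeR, adjusted p = 0.0294). Neither call held in all the fits that left out 1 library: Bcl2l1 had adjusted p of 0.0750, 0.0629 and 0.0723 by edgeR without adenosine 1, adenosine 2 and control 1, and Bcl2 had 0.0745 and 0.0976 without adenosine 1 and control 1. With scaling by library size alone, Bcl2l1 had an adjusted p of 0.0585 by edgeR, and its difference was 0.60 without control 2. Bax did not pass (0.70 ± 0.42, edgeR adjusted p = 0.182).

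The other family members split. Of the 12 tested of 17 other Bcl2 family genes, 5 were higher and 5 lower, with a median log2 difference of -0.10, against -0.05 over all genes tested. Pmaip1, which encodes the Mcl1 antagonist Noxa, was higher by 4.97 ± 0.21 and Bmf, another BH3-only killer, by 2.87 ± 0.33, while Bcl2l2, the guardian Bcl-w, was lower (-3.32 ± 0.51). These calls had edgeR adjusted p of 2.38e-05, 0.000452 and 0.00146. Of 15 NF-kB pathway genes, 9 were higher and 0 lower (median 0.98), led by the signalling adapter Traf1 with 2.35 ± 0.40, Relb with 2.00 ± 0.31 and Nfkbiz with 1.96 ± 0.19. Of 15 mitochondrial apoptosis genes tested, 3 were higher and 6 lower (median -0.17), among the lower ones the channel Vdac1 (-1.46 ± 0.15) and cytochrome c, Cycs (-1.27 ± 0.32). Among 9 regulators of Bim and Mcl1, 6 were higher and 1 lower, with Foxo3, a transcription factor that acts on Bcl2l11, higher by 1.91 ± 0.12, Foxo1 by 1.59 ± 0.39 and Fbxw7, a ubiquitin ligase for Mcl1, by 1.32 ± 0.12.

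Activated mature neutrophils were set against resting ones (none of the 5 activation markers) of the same library. All 7 members tested were higher, where 22.5% of 7382 genes tested were called, 12.1% higher and 10.4% lower. Median depth was close, at 2124 to 2745 UMIs per activated cell and 2112 to 2321 per resting cell. The Bcl2a1 copies summed to 349 and 862 CPM in the activated cells of adenosine 1 and adenosine 2 and 404 and 397 CPM in those of control 1 and control 2. Resting cells of the same libraries had 19.8 and 31.8 CPM in the adenosine libraries and 32.8 and 86.0 CPM in the control libraries. Every activated value lay above every resting value.

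The log2 differences were 3.93 ± 0.27 for Bcl2a1b, 3.91 ± 0.41 for Bcl2a1d and 2.89 ± 0.38 for Bcl2a1a (edgeR, adjusted p of 6.44e-08, 6.86e-06 and 5.21e-05). Without adenosine 2, whose activated cells had 210 CPM of Bcl2a1a against 30.9 to 51.9 CPM in the others, the value for Bcl2a1a was 2.23. The share of Bcl2a1a among the copies was lower in activated (8.35%) than in resting cells (28.2%) over all libraries, where 4176 of the 4549 activated UMIs came from control 2. It was lower in the activated cells of each library, at 14.9% against 32.3% in adenosine 1, 24.4% against 33.3% in adenosine 2, 7.95% against 27.5% in control 1 and 7.78% against 10.4% in control 2.

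Bcl2l11 had 373 and 231 CPM in the activated cells of the adenosine libraries and 368 and 447 CPM in those of the control libraries, against 60.6 and 41.3 CPM and 53.5 and 89.5 CPM in their resting cells (log2 difference 2.57 ± 0.16, edgeR adjusted p = 3.89e-08). Bcl2l1 was higher by 1.78 ± 0.23 and Bax by 1.64 ± 0.23 (edgeR, adjusted p of 5.38e-05 and 8.46e-05). Mcl1 differed least among the members that passed, by 0.61 ± 0.14 (edgeR, adjusted p = 0.00492), with 1501 and 1304 CPM in the activated cells of the adenosine libraries and 1484 and 2485 CPM in those of the control libraries. Resting cells had 889 and 961 CPM in the adenosine libraries and 975 and 1619 CPM in the control libraries, so the states overlapped across libraries for Mcl1 but not within any of them. Bcl2 was too low to be tested.

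**Figure D3:**
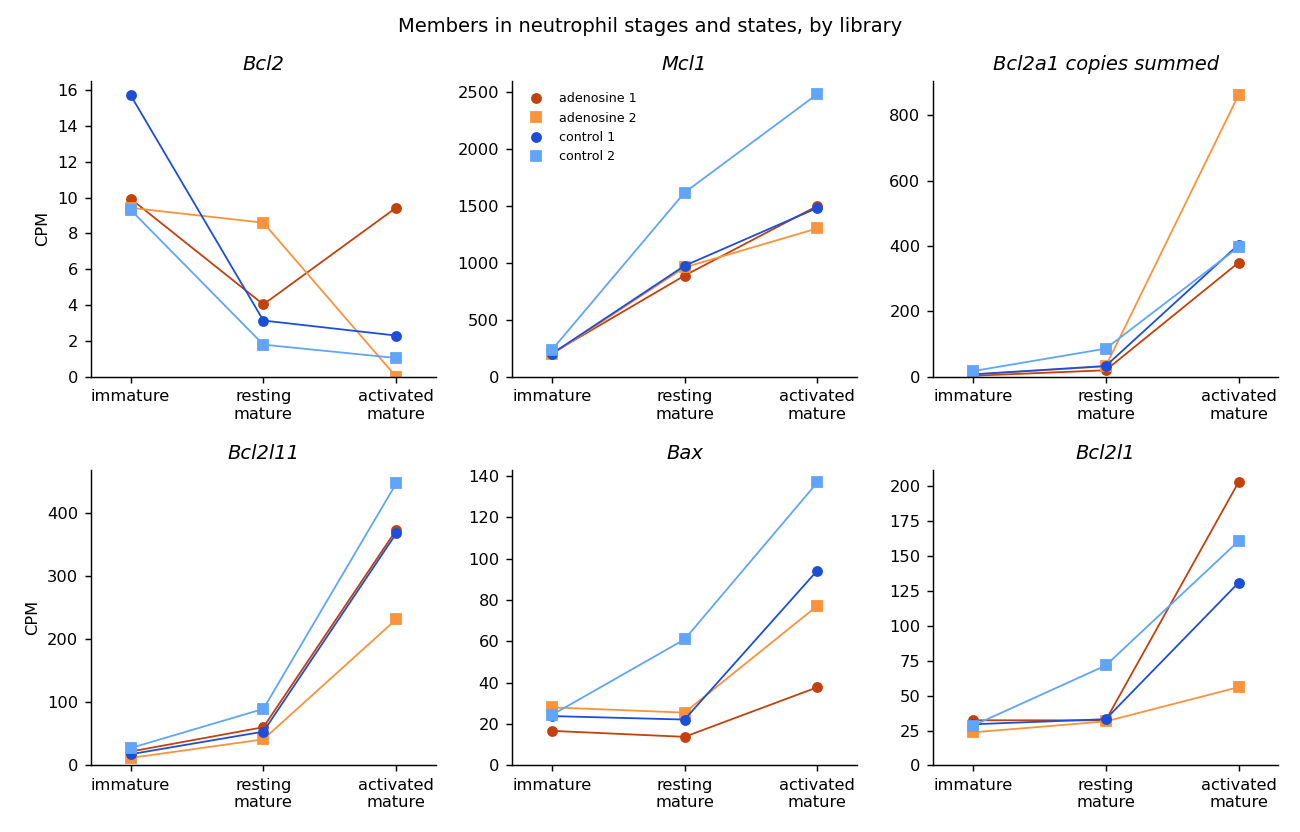
Members (CPM, linear axes from 0) in immature, resting mature and activated mature neutrophils, with 1 line per library. Mcl1 is higher at each step in all 4 libraries, and the summed Bcl2a1 copies, Bcl2l11 and Bax are highest in activated cells of every library.

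Of 15 NF-kB genes, 10 were higher and 0 lower in activated cells (median 1.22, against -0.05 over all genes tested). Traf1 was higher by 4.54 ± 0.36, the inhibitor Tnfaip3 by 3.45 ± 0.31 and the inhibitor Nfkbia by 2.87 ± 0.14, with edgeR adjusted p of 3.65e-07, 1.38e-06 and 2.34e-09. Of the 9 other family genes tested, 2 were higher and 0 lower: Pmaip1 (2.03 ± 0.21) and Bnip3, a mitophagy receptor (1.41 ± 0.23). Among 14 mitochondrial apoptosis genes tested, 3 were higher and 1 lower, with Aifm1 (1.59 ± 0.51), Cycs (1.31 ± 0.30) and the caspase inhibitor Birc3 (1.23 ± 0.23) the largest. Of 7 regulators of Bim and Mcl1, 1 was higher, the light chain Dynll1 (0.55 ± 0.15).

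Monocyte-macrophages were then set against mature neutrophils, with all 8 members called, 2 higher and 6 lower, where 75.5% of 11856 genes tested were called, 39.8% higher and 35.6% lower. Bcl2 was higher by 1.29 ± 0.42 and Bax by 1.09 ± 0.33 on the log2 scale (edgeR, adjusted p of 0.0255 and 0.0190). The call for Bcl2 was lost without adenosine 1 (adjusted p = 0.0697 by edgeR) and with doublets kept (0.66, adjusted p = 0.135), and that for Bax without adenosine 1, adenosine 2 and control 1 (0.0786, 0.0703 and 0.0656). Mcl1 was lower (-2.35 ± 0.15), as were Bcl2a1a (-2.35 ± 0.29), Bcl2a1b (-2.08 ± 0.15), Bcl2l1 (-1.77 ± 0.20), Bcl2l11 (-1.15 ± 0.27) and Bcl2a1d (-1.10 ± 0.18).

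These differences are relative to the bulk of genes. When libraries were scaled by their size only, the median over genes was 1.04 instead of 0.12 and the calls split into 7057 higher and 2203 lower, against 4724 and 4223. The members kept their directions on that scale, but Bcl2l11 (-0.23) and Bcl2a1d (-0.18) were no longer called. In CPM, Bcl2l11 had 93.3 and 54.4 in the monocyte-macrophages of the adenosine libraries and 72.0 and 160 in those of the control libraries, above mature neutrophils in both adenosine libraries and below them in both control libraries.

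The lists went with this contrast in mixed ways. Of 11 other family genes tested, 5 were higher and 5 lower (median -0.10, against 0.12 over all genes tested), with Bcl2l2 (3.91 ± 0.48) and Bcl2l12 (2.62 ± 0.32) higher and Pmaip1 lower (-3.08 ± 0.18). Of 16 mitochondrial apoptosis genes, 8 were higher and 5 lower, led by Endog, a mitochondrial nuclease (3.69 ± 0.39), Casp6 (2.46 ± 0.24) and Cycs (2.00 ± 0.33). Of 15 NF-kB genes, 1 was higher and 8 lower, with Nfkbiz (-2.99 ± 0.20), Nfkbia (-2.01 ± 0.25) and Rela (-1.17 ± 0.13) lower in every library. Of 9 regulators, 2 were higher and 5 lower, with Foxo1 higher (2.58 ± 0.23) and Foxo3 (-2.31 ± 0.13) and Mdm2 (-1.56 ± 0.14) lower.

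T cells differed most from monocyte-macrophages in Bcl2. It had 1844 and 726.5 CPM in the T cells of the adenosine libraries and 2376 and 818 CPM in those of the control libraries, against 17.4 and 18.6 CPM and 19.6 and 15.6 CPM in monocyte-macrophages, a log2 difference of 5.96 ± 0.35 (edgeR, adjusted p = 3.94e-06). In this fit 3 members were called higher and 2 lower, where 44.9% of 12312 genes tested were called, 19.5% higher and 25.5% lower. Mcl1 was lower (-1.55 ± 0.17, edgeR adjusted p = 0.000129).

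The Bcl2a1 copies went in opposite directions in this contrast: Bcl2a1b was higher by 1.95 ± 0.57 and Bcl2a1d by 2.10 ± 0.61, while Bcl2a1a was lower (-2.84 ± 0.61). Their edgeR adjusted p were 0.0226, 0.0227 and 0.00549. Bcl2a1a was at 0 in the T cells of adenosine 1, control 1 and control 2 and at 1.1 CPM in adenosine 2, against 2.0 and 4.9 CPM in the monocyte-macrophages of the adenosine libraries and 6.5 and 13.4 CPM in those of the control libraries. The calls for Bcl2a1b and Bcl2a1d depended on the libraries kept: Bcl2a1b had an edgeR adjusted p of 0.0966 without adenosine 1 and 0.0622 without control 1, and Bcl2a1d 0.0979 without adenosine 1. The value of Bcl2a1d was 1.31 without adenosine 2 and 2.70 without control 2, and that of Bcl2a1b 2.61 without control 2. Bcl2l11, Bax and Bcl2l1 did not pass, with log2 differences of -0.57 ± 0.34, -0.67 ± 0.24 and 0.89 ± 0.37.

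Other family genes followed the class as well. Of 13 tested, 2 were higher in T cells and 7 lower, with the killer Bik (5.61 ± 0.65) and Bcl2l15 (4.38 ± 1.28) higher and Bmf (-4.09 ± 0.60) lower. Of 16 mitochondrial apoptosis genes, 1 was higher and 10 lower (median -0.90, against -0.11 over all genes tested), with the protease Htra2 (-2.23 ± 0.32) and Casp9 (-1.70 ± 0.33) lower and the ubiquitin ligase Birc2 higher (1.32 ± 0.21). Of 15 NF-kB genes, 2 were higher and 2 lower: Traf1 (4.00 ± 0.51), Tnfaip3 (1.93 ± 0.40) and Rel (-1.06 ± 0.17) moved most. Of 9 regulators, 3 were higher and 2 lower, with Foxo1 (2.52 ± 0.17), Dynll1 (-1.24 ± 0.24) and Huwe1, a ubiquitin ligase for Mcl1 (0.70 ± 0.18), the largest.

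Among B cells, Bcl2 was higher in the mature stage and Bcl2l1 in the precursors. Bcl2 had 673 and 463 CPM in the mature B cells of adenosine 1 and adenosine 2 and 583 CPM in those of control 1, against 35.9 and 19.8 CPM and 22.8 CPM in the B cell precursors of the same libraries (log2 difference 4.63 ± 0.25, edgeR adjusted p = 2.07e-08). Bcl2l1 ran the other way, with 13.9 and 6.2 CPM in mature B cells of the adenosine libraries and 12.9 CPM in control 1, against 269 and 287 CPM and 95.1 CPM in the precursors (-4.20 ± 0.37, edgeR adjusted p = 1.45e-06). No value of either gene overlapped between the stages. Control 2, with 8 precursors, did not enter the fit, and its mature B cells had 315 CPM of Bcl2 and no UMI of Bcl2l1. The value for Bcl2l1 was -3.50 without adenosine 2 and -4.81 without control 1.

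The Bcl2a1 copies had no UMI in the precursors of any library, and 74.5, 69.9 and 72.5 CPM when summed in the mature B cells of adenosine 1, adenosine 2 and control 1. Against a floor of 3 UMIs over the precursors of the 3 libraries, mature B cells were at least 38.8-fold higher. Bcl2a1b and Bcl2a1d passed (edgeR, adjusted p of 1.68e-05 and 0.000262), and Bcl2a1a, with 3 UMIs in mature B cells, was not tested. Mcl1 was higher by 1.27 ± 0.19 (edgeR, adjusted p = 0.000155), and Bax (-0.51 ± 0.26) and Bcl2l11 (0.09 ± 0.36) did not pass. In all, 4 of the 7 members tested were higher and 1 lower, where 34.1% of 8921 genes tested were called, 16.4% higher and 17.7% lower.

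**Figure D4:**
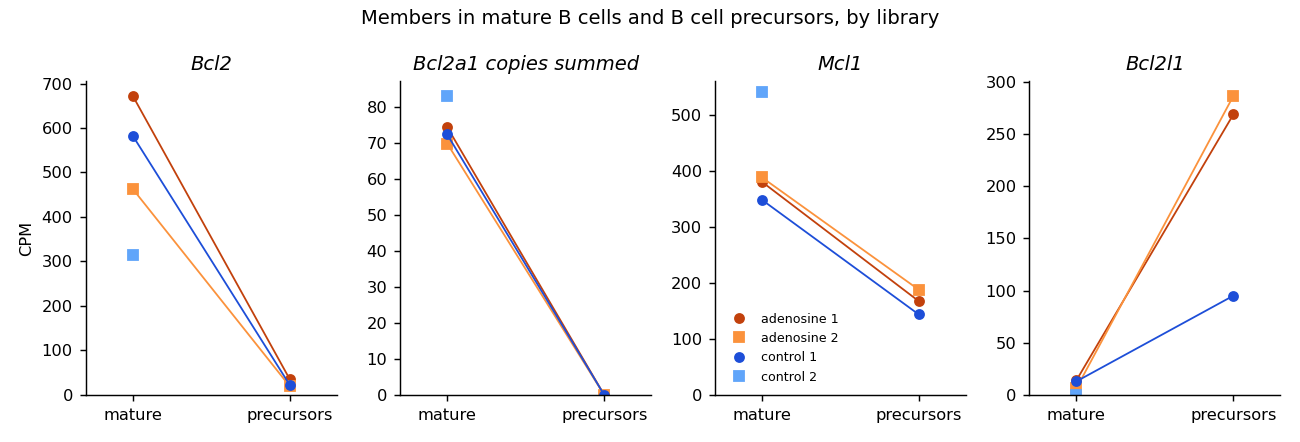
Members (CPM, linear axes from 0) in mature B cells and B cell precursors, with lines joining the classes of a library. Control 2 has no precursor value because it held 8 such cells. Bcl2, the summed Bcl2a1 copies and Mcl1 are higher in mature B cells of each of 3 libraries, and Bcl2l1 is higher in precursors.

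NF-kB genes were again called in 1 direction, with 9 of 15 higher in mature B cells and 0 lower. Traf1 had no UMI in precursors and was at least 19.0-fold higher in mature B cells, Nfkb2 was higher by 3.42 ± 0.42 and Rel by 1.71 ± 0.24. Of 9 other family genes tested, 1 was higher and 3 lower, with Pmaip1 (2.34 ± 0.63) higher and Bcl2l12 (-1.9998 ± 0.35) and Bmf (-1.77 ± 0.63) lower. Of 16 mitochondrial apoptosis genes, 1 was higher and 5 lower, with Vdac1 (-1.82 ± 0.30) lower and Birc3 (1.76 ± 0.22) higher. Of 8 regulators tested, Dynll1 was lower (-0.98 ± 0.19) and Foxo3 higher (0.66 ± 0.22).

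The study's own question was what adenosine changed. No member was called between adenosine and control in the sum of all cells or in immature neutrophils, mature neutrophils, monocyte-macrophages, dendritic cells, B cells or T cells, where 0.00% of the genes tested were called in each by edgeR. At an unadjusted p under 0.05, edgeR found 424 of 16346 genes in all cells, 194 in immature neutrophils, 330 of 9739 in mature neutrophils, 251 of 12384 in monocyte-macrophages, 123 in dendritic cells, 467 in B cells and 176 in T cells. DESeq2 called 19, 6, 60, 8, 2, 6 and 3 genes in these fits. In the sum of all cells, Bcl2 had 131 and 226 CPM in the adenosine libraries and 118 and 24.3 CPM in the control libraries, and Mcl1 had 318 and 326 CPM in the adenosine libraries and 380 and 1403 CPM in the control libraries. The adenosine libraries both lay above the controls for 1 of 8 members (Bcl2; 26.8% of all genes tested) and below them for 2 of 8 (Mcl1 and Bcl2a1a; 9.84%). Such a sum cannot tell fewer cells of a type apart from less RNA per cell.

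In mature neutrophils 7 of the 8 members had lower fitted levels with adenosine, and for 3 of the 8 (Mcl1, Bcl2a1d and Bcl2l11) the adenosine libraries both lay below the controls, as they did for 16.3% of the genes tested (above them for 14.7%). The largest was Bcl2a1b, with 24.2 and 40.1 CPM in adenosine 1 and adenosine 2 and 38.6 and 279.6 CPM in control 1 and control 2 (log2 difference -2.45 ± 1.01, edgeR adjusted p = 0.869). Bcl2a1d had 4.0 and 8.9 CPM in the adenosine libraries and 10.8 and 47.8 CPM in the control libraries (-2.32 ± 0.90). Bcl2l11 (-2.12 ± 0.86), Bax (-1.95 ± 0.86), Bcl2l1 (-1.54 ± 0.71) and Mcl1 (-0.94 ± 0.58) had the same adjusted p of 0.869 by edgeR, and Bcl2a1a stood at -0.58 ± 0.69 and Bcl2 at 0.79 ± 0.88. In each of the 6 lower genes named with that p, control 1 lay with the adenosine libraries and control 2 apart. Without control 1, the fit called 2464 genes, among them all members but Bcl2a1a, and without control 2 it called 0, with -0.20 for Bcl2a1b, -0.70 for Bcl2a1d, -0.27 for Bcl2l11, -0.31 for Bax, -0.14 for Bcl2l1 and -0.018 for Mcl1.

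The 2 states of mature neutrophils were also fitted apart, an alternative added after the data were seen. In resting cells, the summed Bcl2a1 copies had 19.8 and 31.8 CPM in the adenosine libraries and 32.8 and 86.0 CPM in the control libraries. In activated cells Bcl2a1b had 260 and 519 CPM in the adenosine libraries and 296 and 314 CPM in the control libraries, and the fitted differences of Bcl2a1a, Bcl2a1b and Bcl2a1d turned to 1.86, 0.20 and 0.26. Few cells lay behind the adenosine values: 88 and 61 activated cells, against 176 and 3462 in the control libraries. They held 55 and 74 UMIs of Bcl2a1b, against 129 and 3302. No member was called in either state.

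**Figure D5:**
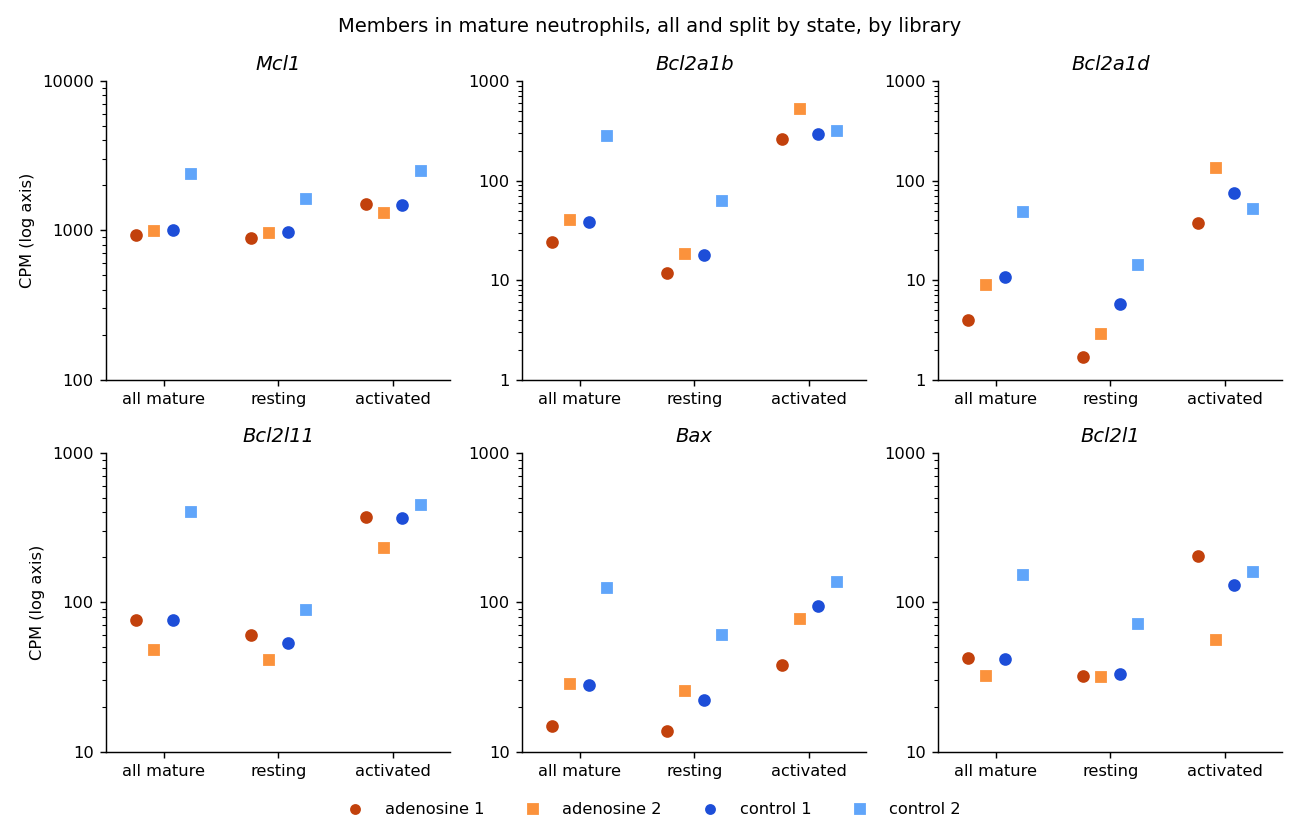
Mcl1, Bcl2a1b, Bcl2a1d, Bcl2l11, Bax and Bcl2l1 (CPM, log axes) in all, resting and activated mature neutrophils, with adenosine libraries left of control libraries and 1 point per library. For these 6 members control 2 lies above the other libraries in all mature neutrophils, by less in resting cells, and within their range for Bcl2a1b, Bcl2a1d and Bcl2l1 in activated cells.

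In monocyte-macrophages the adenosine libraries both lay below the controls for each Bcl2a1 copy (3 of 8 members, against 9.37% of all genes tested, with 16.4% above). Summed, they had 19.4 and 29.8 CPM in the adenosine libraries and 35.6 and 148 CPM in the control libraries. The fitted log2 differences were -2.19 ± 0.71 for Bcl2a1d, -2.07 ± 0.86 for Bcl2a1b and -1.60 ± 0.66 for Bcl2a1a (edgeR, adjusted p of 0.9998 each), and control 2 was again the highest library. The 5 neutrophil activation markers moved with it, at 46 and 43 CPM in the monocyte-macrophages of the adenosine libraries and 75 and 1003 CPM in those of the control libraries. They were also high in the B cells of control 2, with 10 and 17 CPM in the adenosine libraries and 7.7 and 564 CPM in the control libraries. Their part in the result was not tested. Without control 2 the differences were -0.94 for Bcl2a1d, -0.22 for Bcl2a1b and -0.86 for Bcl2a1a and 0 genes were called, and without control 1, 948 genes were called, Bcl2a1b, Bcl2a1d and Bcl2l1 among them. The other members had fitted differences of -0.81 ± 0.51 (Bcl2l11), -0.72 ± 0.52 (Bcl2l1), -0.64 ± 0.44 (Mcl1), -0.48 ± 0.42 (Bax) and -0.07 ± 0.27 (Bcl2).

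The difference between treatments was itself compared between mature neutrophils and monocyte-macrophages in an interaction fit, in which no member was called, nor any other of 12858 genes (0.00%; 558 at an unadjusted p under 0.05 by edgeR, and 6 by DESeq2). The largest member values were 1.16 ± 0.42 for Bcl2a1a and -1.16 ± 0.48 for Bax (edgeR, adjusted p of 0.879 each). Without control 2 they were 1.33 and -0.44 and the fit called 0 genes. Without control 1 it called 2500 genes, among them Bcl2, Bcl2l11, Bax and Bcl2l1.

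In immature neutrophils Bcl2a1a and Bcl2a1b were lower in both adenosine libraries (2 of 8 members, against 6.77% of all genes tested, with 13.6% higher), with 1.6 and 4.4 CPM of Bcl2a1b in the adenosine libraries and 5.1 and 15.0 CPM in the control libraries, of which control 2 was the high one. Activation markers there stood at 17 and 19 CPM in the adenosine libraries and 33 and 593 CPM in the control libraries, and their part was not tested. In dendritic cells Bcl2l11 and Bcl2l1 were higher in both adenosine libraries (2 of 8, against 13.4% of all genes tested, with 8.19% lower). Bcl2l11 had 116 and 81.7 CPM there with adenosine and 78.3 and 71.8 CPM in the controls, a gap smaller than the spread of the adenosine pair.

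In B cells Bcl2 was higher in both adenosine libraries, with 596 and 399 CPM against 317 and 257 CPM in the control libraries (1 of 7 members tested, against 15.1% of all genes tested, with 17.1% lower). B cell precursors made up 8% and 9.92% of the B cells of the adenosine libraries and 25.1% and 10.7% of those of the control libraries. In mature B cells alone the groups overlapped, as given above. In T cells no member was separate between the groups (11.7% of genes tested were higher and 11.2% lower in both adenosine libraries): Bcl2a1d had 31.9 and 114 CPM with adenosine and 26.7 and 47.9 CPM in the controls.

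Patterns across 13 classes were compared by the correlation of log2(CPM + 10) class means over 6902 genes, a description with no test in which all classes share the 4 libraries. The genes most like Bcl2 were Zfp945 (Pearson r = 0.954), Ddx50 (0.942) and Ptprcap (0.936). Those most like Mcl1 were Il1b (0.923), Cd14 (0.921) and Cd300ld (0.916), and those most like summed Bcl2a1 were Crybg1 (0.922), Relb (0.899), an NF-kB subunit, and Cd80 (0.888). Bcl2l11 was nearest to Prr5l (0.895), Fgl2 and Rgs3, Bax to M6pr (0.907), Tmem128 and Ndufa7, and Bcl2l1 to Klhl12 (0.848), Ago2 and Rnf145.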

How the data were processed

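The authors deposited 1 matrix per library with unnormalized UMI counts of each gene in each barcode. The submitters' processing notes name bcl2fastq, Cell Ranger 7.0.0 and mm10; which annotation was used, and whether introns were counted, is not given. Of 35274 barcodes (59503381, 68117846, 58453640 and 32277757 UMIs in adenosine 1, adenosine 2, control 1 and control 2), 1576 with under 200 genes or at least 10% mitochondrial UMIs and 2537 with the highest Scrublet scores (a rate in proportion to the barcodes loaded; scanpy 1.11.5, since its automatic threshold marked 0% in 3 libraries) were removed.

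Each cell was scored on 16 marker lists (mean of markers scaled to 10000 UMIs and to the 95th percentile of cells with a UMI). A class needed a score of 0.1, a margin of 0.05 and 3 detected markers; 95.5% of gated cells lay in a Leiden cluster of the same name. Classes with 20 cells per library were summed. Summed counts were tested with edgeR 4.0.16 (TMM, filterByExpr, quasi-likelihood test, two-sided) in R 4.3.3 and adjusted by Benjamini and Hochberg over all genes. Class contrasts had the library as a block. The SE of a fitted difference was derived from the test, as its absolute value divided by the square root of the F statistic. DESeq2 1.42.0, other scalings, clusters, kept doublets and left-out libraries were alternatives. The fits were checked on simulated data. Intervals cover counting error only. A floor of 3 UMIs equals 0.0520 to 0.102 CPM in all cells of a library.

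Members and lists were chosen with earlier results of these data known, and the list genes named are up to 3 with the largest called difference that went the same way in every library; some that met this rule are not reported here. Genes were matched to GENCODE M21 by identifier (32158 of 32285). Promoters are from RefSeq (GRCm38.p6).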

Additional observations from a re-analysis of the deposited data

Results flagged for a closer look

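In some genes every adenosine library moved one way in one class and the opposite way in another, and the difference between the classes was not tested except for mature neutrophils and monocyte-macrophages. Bcl2a1a had a mean of 0.714 CPM more with adenosine in B cells, where it had 3 UMIs in all, and a mean difference (adenosine minus control) of -0.604 CPM in immature neutrophils and -6.46 CPM in monocyte-macrophages. Bcl2l11 had a mean of 23.9 CPM more with adenosine in dendritic cells and a mean difference of -177 CPM in mature neutrophils, where control 2 had 400.4 CPM and the other libraries 47.7 to 76.3 CPM.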

How the results depend on the processing

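The 32 member differences that were called kept their direction in all 199 values from other settings, of which 4 missed the threshold, and in all 121 values without 1 library, of which 12 did. Of the 489 values of differences that were not called, 13 passed the threshold under another setting and 20 turned direction, and of their 270 values without 1 library, 19 passed and 39 turned. In 14 of 88 member levels the mean moved by over 1 SD when clusters replaced the gates. DESeq2 called 19 genes between adenosine and control in all cells, 6 in immature neutrophils, 60 in mature neutrophils, 8 in monocyte-macrophages, 2 in dendritic cells, 6 in B cells, 3 in T cells and 6 in the interaction, against 0 by edgeR, and 1994 between the B cell stages, against 3042. Without the filter on low counts, edgeR called 124 genes in immature neutrophils, 510 in mature neutrophils (Bcl2a1b, Bcl2a1d, Bcl2l11, Bax and Bcl2l1 among them), 1 in dendritic cells, 104 in B cells, 121 in T cells and 141 in the interaction. Library size scaling called 1 gene in immature neutrophils. Replicate numbers were not shown to pair the libraries (correlation of the within-group differences -0.0060 in all cells, 0.11 in mature neutrophils, -0.017 in monocyte-macrophages, 0.20 in B cells and 0.29 in T cells, from 2 pairs). The replicate block called 9 genes in immature neutrophils.

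Leaving out 1 library in turn gave 1 to 104 genes between adenosine and control in immature neutrophils, 0 to 2464 in mature neutrophils, 0 to 948 in monocyte-macrophages, 0 to 4 in dendritic cells, 9 to 193 in B cells, 1 to 391 in T cells and 0 to 2500 in the interaction. Between activated and resting neutrophils it gave 1035 (without control 1) to 1642 genes, against 1660. Among member differences that were not called, these fits gave for adenosine against control -1.24 to 0.48 for Bcl2a1a in mature neutrophils, and in monocyte-macrophages -0.16 to 0.066 for Bcl2, -1.33 to 0.024 for Bcl2l11, -0.85 to 0.037 for Bax and -1.27 to 0.21 for Bcl2l1. They gave -0.15 to 0.57 for Bcl2l11 between the B cell stages and -0.34 to 0.20 for Bcl2a1d in the interaction. With 1 library left in a group, that library is assumed to vary like those of the other group. Bcl2l11 between the B cell stages turned to -0.014 with library size scaling and -0.10 with doublets kept. Bcl2 in monocyte-macrophages, adenosine against control, turned to 0.025 with library size scaling and 0.82 with clusters as classes. In activated cells alone, Bcl2a1a, Bcl2a1b and Bcl2a1d turned to 1.86, 0.20 and 0.26. The causes were not tested.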

Other observations

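Immature neutrophils were also split by division (UMIs of at least 3 of 5 division markers, against none), with no test. The dividing cells held more UMIs, with library medians of 8372 to 13160 per cell against 3642.5 to 6115 in non-dividing cells. The levels below are shares of UMIs, and amounts per cell were not compared. Control 2 held 43 dividing cells, and its values of Mcl1 were close. Mcl1 was lower in dividing than in non-dividing cells of every library, with 99.8 and 122 CPM in the dividing cells of adenosine 1 and adenosine 2 and 111 and 227 CPM in those of control 1 and control 2, against 263 and 255 CPM and 252 and 234 CPM in the non-dividing cells. Bcl2 was higher in the dividing cells of every library, with 17.5 and 13.3 CPM in the adenosine libraries and 20.8 and 12.6 CPM in the control libraries, against 6.2 and 5.8 CPM and 12.1 and 7.0 CPM in non-dividing cells. Bcl2l11 was also higher in dividing cells of every library, with 36.0 and 17.04 CPM in the adenosine libraries and 25.7 and 40.9 CPM in the control libraries, against 13.6 and 7.5 CPM and 12.9 and 20.2 CPM.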
